A study of Mus musculus with 278 samples.

Results

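The cells described here are the 67 spermatogonia with the highest and the 67 with the lowest levels of immediate early genes among 278 single cells. They were chosen by a score, the mean of log2(FPKM + 1) of Fos, Jun, Junb, Ier2, Dusp1 and Zfp36, where FPKM is a level per transcript length and per mapped fragment of the cell. Within each of 5 cell preparations, the cells with the highest scores (the high group) were set against as many with the lowest (the low group), 25% of the cells each, which gave 6, 15, 9, 18 and 19 cells a side. Because the score chose the cells, the 6 genes differ between the groups by construction, and their values are given as a description with no test.

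All cells were ID4-EGFP positive spermatogonia sorted from the testes of untreated mice at postnatal day 6, and the groups did not differ in genotype or treatment. Id4 encodes an inhibitor of DNA binding, and brightness of its EGFP reporter is used to grade spermatogonia from stem cells toward progenitors. The testes of at least 2 pups were pooled for each suspension and digested with trypsin, and sorted cells were captured on Fluidigm C1 chips made for cells of a set size range. Imaging served to discard wells that held a dead cell, more than 1 cell or debris. It also ranked the cells by EGFP into quartiles, with Q1 the brightest and Q4 the dimmest; the protocol text gives the dim quartile another number than the design text followed here. The labels do not say whether the preparations came from separate litters, and the brightness of each cell inside its quartile was not analysed here.

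Immediate early genes are switched on within minutes of a stimulus, with no need for new protein, when kinases such as ERK activate transcription factors already bound to their promoters. Fos, Jun and Junb encode parts of the AP-1 transcription factor. Dusp1 encodes a phosphatase that switches MAP kinases off, Zfp36 a protein that speeds the decay of messages with AU-rich elements, and Ier2 a nuclear protein. In the testis, GDNF from somatic cells acts through the receptors GFRA1 and RET on spermatogonial stem cells, and with FGF it maintains genes such as Etv5, Bcl6b and Lhx1. Enzymatic digestion is also known to induce immediate early genes in many tissues. It was part of every preparation, so its part in the levels cannot be told apart here.

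The promoters show which regulatory motifs lie near the starts of the genes that set the score. A cAMP response element (CRE), bound by CREB, has the full palindrome TGACGTCA and the half-site TGACGT, and a CArG box is bound by serum response factor. All motifs were searched on both strands of the 250 bases before each start, and the half-sites lie within the full CRE where both match. Sequences are from RefSeq (build GRCm38.p6), 5′ to 3′ on the strand of the gene, and capitals mark a CRE half-site, a full CRE or a CArG box. The window of Fos is chr12:85473640-85473839 on the plus strand, and that of Dusp1 is chr17:26508523-26508722 on the minus strand. For Zfp36 the 30 bases at chr7:28379267-28379296 on the minus strand are shown. Egr2, a gene outside the score, is shown at chr10:67537619-67537818 on the plus strand. Of its 5 listed starts, this was the first whose searched bases held both a CArG box and a CRE half-site.
Fos: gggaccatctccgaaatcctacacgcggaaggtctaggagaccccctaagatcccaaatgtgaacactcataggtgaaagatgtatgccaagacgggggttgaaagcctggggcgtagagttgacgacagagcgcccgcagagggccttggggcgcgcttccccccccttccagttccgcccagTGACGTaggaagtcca
Dusp1: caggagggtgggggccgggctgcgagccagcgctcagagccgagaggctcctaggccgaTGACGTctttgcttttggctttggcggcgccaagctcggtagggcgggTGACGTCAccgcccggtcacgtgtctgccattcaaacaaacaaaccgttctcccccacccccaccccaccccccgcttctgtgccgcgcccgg
Zfp36: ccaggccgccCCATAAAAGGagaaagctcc
Egr2: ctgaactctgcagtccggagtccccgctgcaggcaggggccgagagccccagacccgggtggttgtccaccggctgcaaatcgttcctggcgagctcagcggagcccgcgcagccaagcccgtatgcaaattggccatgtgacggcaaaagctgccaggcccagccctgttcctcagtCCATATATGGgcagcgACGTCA
In Fos the half-site began 66 bases before the start. Dusp1 held half-sites at 191, 143 and 141 bases, the last pair forming the full CRE at 143. Zfp36 held a CArG box at 58 bases, and Egr2 a CArG box at 72 and a half-site at 56. Over 32851 promoters, the half-site was found in 6.47%, the full CRE in 1.55%, the CArG box in 1.47% and the AP-1 site TGACTCA in 4.46%. The search covered 15 genes, of which 14 were in the table; Ier2 was not. It began with the full CRE, the CArG box and the AP-1 site, and the half-site was added after the Fos sequence had been seen. The full CRE matched 1 gene (Dusp1), the CArG box 2 (Egr2 and Zfp36), the half-site 3 (Dusp1, Egr2 and Fos) and the AP-1 site 0. A gene counted as matched if any of its listed starts matched, while the shares above are per promoter. A match is a description of letters and not a bound site.

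Dusp1 and Fos carried most of the score. Dusp1 made up 33.5% of the difference in score between the groups, Fos 25.4%, Zfp36 19.2%, Ier2 15.8%, Jun 5.02% and Junb 1.17%. Dusp1 reached FPKM 1 in 141 of 278 cells, Zfp36 in 96, Fos in 93, Ier2 in 90, Jun in 40 and Junb in 8. The score is therefore mainly a measure of Dusp1, Fos, Zfp36 and Ier2, and of the AP-1 genes Fos weighs far more in it than Jun or Junb.

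In preparations 1 to 5, mean Dusp1 in the high group was 113, 73, 24.9, 49.8 and 31.2 FPKM. In the low group it was 19.5, 0.669, 0, 0.0720 and 0.162 FPKM. Low cells of preparation 1 stood apart from those of the other preparations. Mean Fos in the high group was 78.4, 43.7, 25.1, 21.7 and 19.4 FPKM, against 11.3, 2.37, 0, 0 and 0.156 in the low group. Mean Zfp36 was 9.89, 8.69, 23.9, 13.7 and 10.8 FPKM in the high group and at most 1.60 in the low group of any preparation. Ier2 ran from 3.41 to 16.3 FPKM over the high groups, and from 0 to 2.12 over the low groups. Jun did not exceed 3.97 FPKM and Junb did not exceed 1.56 FPKM in any high group. On the GENCODE M21 annotation (GRCm38), Fos lies on chromosome 12 and Ier2 on chromosome 8 with no overlapping gene. Jun, Junb, Dusp1 and Zfp36 each overlap a gene on the opposite strand (Junos, Prdx2, Ergic1 and Gm44710), so reads of the pair may not be told apart.

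**Figure D1:**
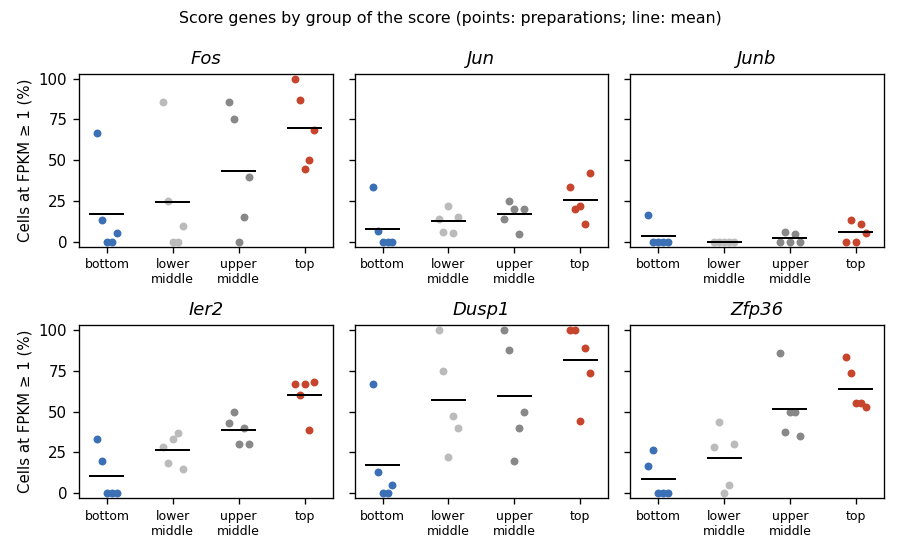
Cells that reached FPKM 1 (%) for each score gene in 4 groups of the score from bottom to top, with 1 point per preparation and a line at the mean of the 5. Dusp1, Fos, Zfp36 and Ier2 climb from bottom to top, while Junb stays near 0; 4 of the 6 low cells of preparation 1 were at 1 FPKM or above for Fos.

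The score differed in level between preparations. Its median was 2.07 in preparation 1, 1.36 in preparation 2, 0.59 in preparation 3, 0.76 in preparation 4 and 0.74 in preparation 5. No cell of preparation 1 had a score of 0, against 4, 10, 15 and 13 cells in the others. At the lower threshold, the highest low cell and the next cell were at 1.59 and 1.73 in preparation 1, at 0.76 and 0.81 in preparation 2, and at 0.13 and 0.13 in preparation 4. They were at 0.28 and 0.28 in preparation 5. In preparation 3, 10 cells tied at 0, of which 9 were taken in accession order. At the upper threshold, the last cell outside and the first inside were at 2.66 and 2.66, 2.22 and 2.24, 1.06 and 1.37, 1.27 and 1.28, and 1.48 and 1.48 in preparations 1 to 5. A low cell of preparation 1 could thus score above a high cell of preparation 3, 4 or 5. For this reason cells were compared only within preparations.

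**Figure D2:**
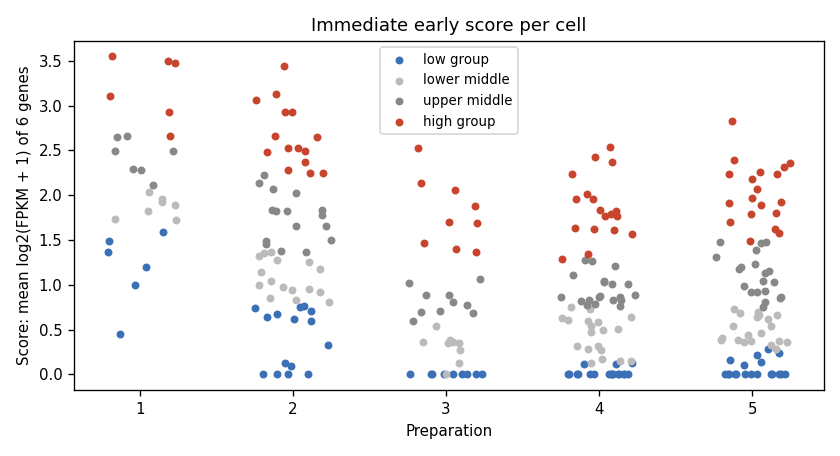
Immediate early score of each of the 278 cells (vertical axis, mean log2(FPKM + 1) of 6 genes) by preparation (horizontal axis), coloured by group of the score, 25% of cells each. Preparation 1 lies highest, with a median of 2.07, and preparations 3 to 5 hold many cells at 0.

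The 6 genes were seldom found together in a cell. Among all cells, 56 had none of the 6 at FPKM of at least 1, 78 had 1, 69 had 2, 50 had 3, 23 had 4, 2 had 5 and 0 had all 6. Across cells within a preparation, Spearman's rho between Fos and Dusp1 averaged 0.23 over the 5 preparations, the highest of the 15 pairs. The other pairs averaged from -0.14 (Jun and Zfp36) to 0.15 (Jun and Dusp1, above 0 in each preparation, as Fos and Dusp1 were). These are weak correlations of sparse values that share a library and its depth. As a measure less tied to the rule, each gene was compared between groups set by the other 5. Fos was then higher by 1.43 ± 0.29 and Dusp1 by 1.28 ± 0.37 on the log2(FPKM + 1) scale (SD, n = 5), each in 5 of 5 preparations. Ier2 was higher by 0.72 ± 0.48 in 4 of 5 and Zfp36 by 0.35 ± 0.48 in 3 of 5. Jun (0.05 ± 0.53) and Junb (-0.00386 ± 0.144) had means near 0. These values come from genes that also chose the cells and are given with no test.

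Both groups were germ cells by their markers, with a median of 12 of 13 germ cell markers at FPKM of at least 1 in the high and in the low group. Some markers of other testis cells were detected. Of the Sertoli markers, Sox9 reached FPKM 1 in 8 high and 2 low cells, Wt1 in 3 and 5, Clu in 12 and 6 and Rhox5 in 8 and 6, and 7 high and 4 low cells had 3 or more of the 12. Of the macrophage and blood markers, Cd68 did so in 13 high and 7 low cells, Ptprc in 1 and 0, and Tyrobp and Hba-a1 each in 0 and 1. The Leydig marker Star reached FPKM 1 in 11 high and 11 low cells. Of the stromal markers, Col1a1 did so in 16 and 15 cells, Pdgfra in 13 and 15 and Tagln in 7 and 8. Of the endothelial markers, Egfl7 did so in 31 and 30 cells and Pecam1 in 6 and 8. The Sertoli markers Amh, Gata1 and Fshr and the Leydig markers Cyp11a1, Cyp17a1, Insl3 and Lhcgr were at 0 FPKM in all 134 cells. So were the macrophage markers Csf1r, Lyz2, C1qa, C1qb and C1qc. The part of other cell types in the results was not tested. Summed Sertoli markers had a median of 119 FPKM in the high and 116 in the low group, with Ctsl at FPKM of 1 or more in 65 high and 62 low cells. Summed stromal markers had medians of 1.33 and 0.728 FPKM and summed endothelial markers of 2.36 and 3.11 FPKM. The medians of summed Leydig markers and of summed macrophage and blood markers were 0 in both groups. Estimated depth over all cells ranged from 216409 to 2180200 mapped fragments, with a median of 688951. Between the groups, the log2 ratio of depth was -0.05 ± 0.06 (SD, n = 5), below 0 in 4 of 5 (two-sided exact permutation p = 0.1875). Detected genes (FPKM above 0) averaged 6766 ± 1105 in the high and 6441 ± 1105 in the low group. The high group had 324 ± 171 more (SD, n = 5), a surplus seen in each of the 5 preparations, where the two-sided exact permutation test gave p = 0.0625, the minimum for 5 pairs.

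Bright cells made up a larger share of the high than of the low group in each preparation, and dim cells a smaller one. Q1 cells were 50%, 40%, 44.4%, 38.9% and 52.6% of the high group in preparations 1 to 5, and 16.7%, 13.3%, 22.2%, 22.2% and 10.5% of the low group. The 2 sets of shares did not overlap. The difference was 28.2 ± 9.88 percentage points (SD, n = 5), higher in each of the 5 (two-sided exact permutation p = 0.0625, again the minimum). Dim Q4 cells were 16.7%, 6.67%, 0%, 16.7% and 10.5% of the high group, and 33.3%, 40%, 33.3%, 22.2% and 42.1% of the low group. Their difference was -24.1 ± 12.5 points, lower in each of the 5 (two-sided exact permutation p = 0.0625). With the score adjusted for detected genes, the Q4 difference was -15.2 points and lower in 3 of 5, and the Q1 difference was 22.7 points and higher in 5 of 5. Q2 (4.71 ± 10.8 points) and Q3 (-8.82 ± 18.7 points) differed by less than their spread. The makeup of the groups by EGFP quartile is to be read beside the gene differences that follow.

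**Figure D3:**
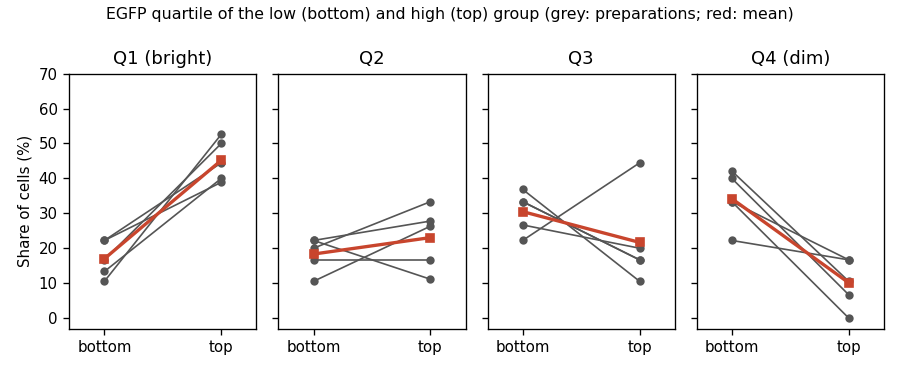
Share of cells (%) in each EGFP quartile for the low (bottom) and the high (top) group, with grey lines for the 5 preparations and a red line for their mean. Q1 climbs and Q4 drops from bottom to top in every preparation, by 28.2 and -24.1 points on average.

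The comparison of the high with the low group asked which other genes go with the immediate early score. In the high group, 13 of 10447 genes rose (0.124% of those tested) and 2 fell (0.0191%), by limma at a Benjamini-Hochberg adjusted p under 0.05. The 13 included the immediate early transcription factors Egr1 and Egr2, the ERK inhibitor Spry4, the GDNF co-receptor Gfra1 and the cyclin Ccnd2. Uchl1, a deubiquitinase abundant in spermatogonia, was among the genes that fell. Over all genes, 61.4% were above 0, with a median difference of 0.10 on the log2(FPKM + 1) scale. At an unadjusted p under 0.05, 829 genes were higher (7.94%) and 189 lower (1.81%).

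These calls were fragile. No gene passed, against the 15, when the mean number of detected genes was a covariate, when the score was adjusted for detected genes, without the preparation as a block, with only the high and low groups fitted, with no filter on low values, with Ier2 left out of the score, or without preparation 5. The calls numbered 1 without preparation 4 and 8 without preparation 1. All 15 genes kept their sign under each alternative in which they were tested, and the differences below are read beside the larger number of detected genes in high cells, whose part was not tested further.

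Egr1, a zinc finger transcription factor induced through ERK and serum response factor, averaged 150, 155, 115, 87 and 137 FPKM in the high group of preparations 1 to 5. In the low group it averaged 60.4, 73, 37.5, 39.8 and 36.7 FPKM. Every value of the high group lay above every value of the low group. The difference was 2.0 ± 0.32 (log2 difference ± SE, limma adjusted p = 0.0174, n = 5). It ran from 1.13 in preparation 2 to 3.44 in preparation 5. With detected genes as a covariate it was 1.69, and without preparation 5 it was 1.43.

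Egr2, a relative of Egr1 that also responds to GDNF, averaged 44.4, 17.6, 22, 16.5 and 15.7 FPKM in the high group. In the low group it averaged 26, 19.8, 0, 2.64 and 10.9 FPKM. The sets overlapped through the high low cells of preparations 1 and 2. The difference was 1.80 ± 0.34 (limma adjusted p = 0.0314), above 0 in 5 of 5 preparations by mean log values, while mean FPKM was lower in the high group of preparation 2. The share of cells that reached FPKM 1, averaged over preparations, was 73.5% in the high and 34.5% in the low group. In Egr2 the CArG box and the CRE half-site printed above lie within the same stretch because the start shown was chosen for holding both.

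The wider family of immediate early genes followed less clearly. Of 53 such genes outside the score, 37 were tested: 2 rose (Egr1 and Egr2) and 0 fell, against 0.124% and 0.0191% of all genes. Above 0 were 27 (73%), against 61.4% of all genes, with a median of 0.23 against 0.10. At an unadjusted p under 0.05, 7 were higher and 0 lower, where all genes had 7.94% and 1.81%. Zfp36l1, a relative of Zfp36 in mRNA decay, had a difference of 1.35 ± 0.36 (limma adjusted p = 0.139), positive in 5 of 5 preparations. Ier3 had 1.49 ± 0.42 and was positive in 4 of 5. Mcl1, a survival factor, had 0.95 ± 0.36, and Rhob, a small GTPase, had 0.79 ± 0.29. Ppp1r15a, a phosphatase subunit of the stress response, had 0.69 ± 0.33, and Klf10, a zinc finger factor, had 0.49 ± 0.26. None of these 6 passed the test. The list of heat shock genes, which encode chaperones and ubiquitin, had 0 of 17 past the test and a median of 0.10, equal to that over all genes at this precision. Of the 17, 15 (88.2%) were above 0, against 61.4% of all genes. The heat shock genes with the smallest p were Chordc1, a co-chaperone (0.80 ± 0.29), and the ubiquitin gene Ubb (-0.16 ± 0.06).

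The GDNF pathway was ordered from receptors to targets. Gfra1 averaged 52.1, 32.3, 68.4, 34.8 and 55 FPKM in the high group and 32.2, 30.5, 48.5, 18.8 and 13.8 FPKM in the low group. Within each preparation the value of the high group was the higher one, although the sets overlapped. The difference was 2.13 ± 0.40 (limma adjusted p = 0.0296), from 0.63 in preparation 2 to 3.82 in preparation 5. The share of cells that reached FPKM 1 for Gfra1, averaged over preparations, was 95.3% in the high and 58.9% in the low group. Ret, the signalling receptor, had 1.24 ± 0.39 (limma adjusted p = 0.232) and was positive in 5 of 5 preparations by mean log values, while mean FPKM went the other way in preparation 4. Of 12 tested receptors and adaptors, Gfra1 alone passed the test and 9 (75%) were above 0, against 61.4% of all genes. Of 27 tested genes of the MAP kinase and serum response factor pathway, 0 passed, and 21 (77.8%) were above 0. Mapk11, the p38 beta kinase, had 1.53 ± 0.34 (limma adjusted p = 0.0600), and Mkl1, a cofactor of serum response factor, had 0.75 ± 0.24.

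Genes that respond to GDNF or FGF mostly had differences above 0. Of 23 tested, 3 rose (Egr2, Spry4 and Ccnd2) and 0 fell, against 0.124% and 0.0191% of all genes. Above 0 were 22 (95.7%), against 61.4% of all genes, with a median of 0.61 against 0.10. At an unadjusted p under 0.05, 13 were higher, where all genes had 7.94%. Over 23 alternatives the median ran from 0.49 (without preparation 5) to 1.00 (pseudocount 0.1). With detected genes as a covariate it was 0.73, against -0.02 over all genes. Egr2, Egr3 and Ier3 are also in the list of other immediate early genes, and without them the median was 0.54 (20 of 21 above 0).

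Among the feedback inhibitors of ERK, Spry4 averaged 38, 25.95, 14, 30.3 and 35.5 FPKM in the high group and 32.4, 10.6, 1.06, 19.3 and 11.3 FPKM in the low group. It was higher in 5 of 5 preparations by 2.01 ± 0.35 (limma adjusted p = 0.0193), and the sets overlapped. Dusp6, an ERK phosphatase, averaged 51.5, 39.4, 49.8, 74.9 and 91.1 FPKM in the high group and 22, 55.9, 31.3, 36.5 and 20.3 FPKM in the low group. Dusp6 had 2.07 ± 0.45 and missed the test (limma adjusted p = 0.0600), while its mean log values were higher in 5 of 5 preparations. In preparation 2 its mean FPKM went the other way. Spry1 (0.53 ± 0.22), Spry2 (0.42 ± 0.34), Spred1 (0.37 ± 0.34), Spred2 (0.28 ± 0.27) and Dusp5 (0.19 ± 0.23) were smaller and did not pass. The sign of Spred1 turned with detected genes as a covariate and in 3 other alternatives.

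Among the transcription factors, Etv5, which stem cell renewal requires, averaged 82.2, 53.4, 66, 32.6 and 73.6 FPKM in the high group and 59, 31.6, 50.1, 29.5 and 11 FPKM in the low group. Its difference of 1.90 ± 0.45 missed the test (limma adjusted p = 0.0820). Preparation 5 gave 3.96, and without that preparation the difference was 1.08. Bcl6b, a transcriptional repressor, had 1.23 ± 0.36, and Lhx1, a LIM homeodomain factor, had 1.05 ± 0.31, each positive in 5 of 5 preparations by mean log values, while their mean FPKM went the other way in preparation 2. Etv4 had 0.61 ± 0.25, Pou3f1 had 0.20 ± 0.24 and Stat3 had 0.37 ± 0.42. Mycn was the single list member below 0, at -0.40 ± 0.36. None of these 7 passed the test, and Stat3 turned sign without preparation 5.

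Among the remaining responders, Ccnd2, a D-type cyclin, averaged 153, 153, 145, 104 and 135 FPKM in the high group and 155, 89.1, 95.5, 64.1 and 75.3 FPKM in the low group. It rose by 1.48 ± 0.31 (limma adjusted p = 0.0495). Preparation 1 showed almost none of that difference, at 0.02. Nefm, a neurofilament (1.32 ± 0.43), Tspan8, a tetraspanin (0.83 ± 0.41), Sdc4, a syndecan (0.62 ± 0.21), Cxcr4, a chemokine receptor (0.54 ± 0.25), Il6st, a cytokine receptor (0.53 ± 0.32), and Phlda1 (0.34 ± 0.18) did not pass.

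**Figure D4:**
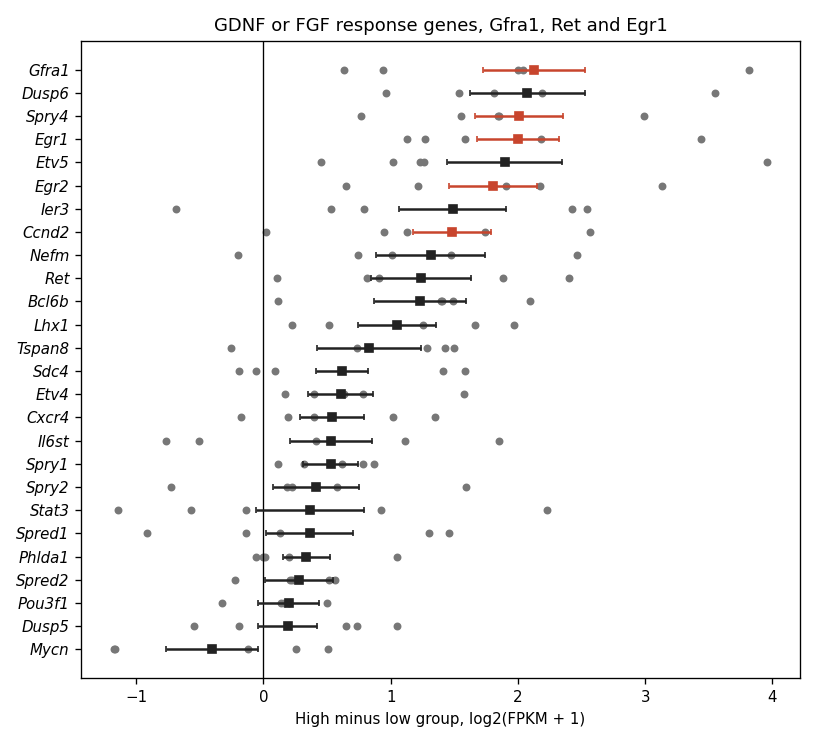
Difference between the high and the low group, in log2(FPKM + 1), for the 23 tested GDNF or FGF response genes with Gfra1, Ret and Egr1; grey points are preparations, squares and bars the fitted difference and its SE, in red where the limma adjusted p was under 0.05. Only Mycn lies below 0 in its fitted difference, and preparation 5 gives the highest point for Gfra1, Dusp6 and Etv5.

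The other genes that rose had no single theme. Pmaip1, which encodes the pro-apoptotic protein NOXA, averaged 43, 31.1, 47.5, 31.8 and 40.9 FPKM in the high group. In the low group it averaged 28.6, 9.61, 8.74, 30.04 and 4.23 FPKM, and the sets did not overlap. It rose by 2.11 ± 0.44 (limma adjusted p = 0.0495), and among 11 tested p53 response genes it alone passed; Aen, an exonuclease of that list, had 0.88 ± 0.37. Fcer1g, the shared gamma chain of Fc receptors, averaged 25.4, 13.7, 21.5, 17.5 and 27.3 FPKM against 12.5, 3.45, 0, 2.30 and 2.69, with no overlap. It rose by 1.59 ± 0.30. Cd68, of the macrophage list, reached FPKM 1 in 13 high and 7 low cells, as given above, and its part in Fcer1g was not tested. Fgl1, a fibrinogen-like secreted protein, rose by 1.90 ± 0.38, again with no overlap. Fam81a rose by 2.26 ± 0.38, Nid1, a basement membrane protein, by 1.45 ± 0.29, Rasa3, a GTPase activator for Ras family proteins, by 1.51 ± 0.30, and Ado, a thiol dioxygenase, by 1.04 ± 0.21. Each of these 7 was higher in 5 of 5 preparations by mean log values, and Ado was lower by mean FPKM in preparation 3 (412 against 528). Hsd17b12, a steroid and fatty acid enzyme, rose by 1.49 ± 0.27 in 4 of 5 preparations, and is named although it lies outside the rule for named genes.

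Uchl1 averaged 360, 339, 236, 390 and 284 FPKM in the high group and 660, 595, 505, 545 and 511 FPKM in the low group. Every value of the high group lay below every value of the low group. It fell by 0.78 on the log2 scale (SE 0.16, limma adjusted p = 0.0405), although all cells of both groups expressed it. Of 76 ribosomal protein genes 58 were below 0, with a median of -0.15. Of the ribosomal list 23.7% were above 0, against 61.4% of all genes. Rpl39 of that list had 0.80 ± 0.18 and did not pass the test. Of 61 tested respiratory chain genes, 0 passed, 45 were below 0 and 26.2% were above 0 (median -0.10). Ndufv1, of complex I, had 0.65 ± 0.20 and Atp5g1, of ATP synthase, -0.34 ± 0.14. High cells also had more detected genes, and the part of that difference in these shifts was not tested.

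Stem cell associated genes lay above 0 and most differentiation genes below 0 in the comparison of the groups, with few past the test. All 20 tested stem cell associated genes were above 0, with a median of 0.77, against 61.4% and 0.10 over all genes. Of the 20, 2 passed (Gfra1 and Egr2). This list shares Gfra1, Etv5, Bcl6b, Lhx1, Egr2, Dusp6, Tspan8 and Ret with the GDNF lists, so it is no separate evidence. Differentiation genes had 0 of 11 past the test and 8 below 0, with a median of -0.19. Kit, the receptor of differentiating spermatogonia, had -1.31 ± 0.46, and Sohlh1, a factor of early differentiation, -1.01 ± 0.30, each lower in 5 of 5 preparations. Of 8 tested retinoic acid response genes, 6 were below 0 (median -0.63) and 0 passed; Rara, a receptor, had -0.76 ± 0.29. Progenitor genes had a median of -0.16 (6 of 9 below 0, 0 past the test), with Rarg at -0.54 ± 0.25 and Lin28b at -0.43 ± 0.30. The shares above 0 were 27.3% for differentiation, 25% for retinoic acid response and 33.3% for progenitor genes, against 61.4% of all genes.

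The G1/S, G2/M, ATF4 response and glycolysis lists held no gene past the test. Among 43 tested G1/S genes 39 (90.7%) were above 0, with a median of 0.40, against 61.4% and 0.10 over all genes. Prim1, the DNA primase, had 1.19 ± 0.28 and Rrm1, of ribonucleotide reductase, 0.77 ± 0.20. Among 28 G2/M genes 17 (60.7%) were above 0, with a median of 0.10, near the values over all genes. Top2a, a topoisomerase, had 0.78 ± 0.20, above 0 in 4 of 5 preparations by mean log values and with no overlap of the mean FPKM, and Cdca8, of the chromosomal passenger complex, -0.47 ± 0.20. Medians were 0.20 for 13 ATF4 response genes and 0.03 for 17 glycolysis genes, against 0.10 over all genes. Phgdh and Trib3 of the ATF4 list had 0.43 ± 0.27 and -0.30 ± 0.23, and Ldhb and Slc2a3 of glycolysis had 0.99 ± 0.39 and 0.44 ± 0.19. The list of AP-1 partners and mRNA decay factors had a median of 0.08 over 24 genes, against 0.10 over all genes. Elavl1 of that list had -0.43 ± 0.27 and Batf3 -0.50 ± 0.31. Tex101, a germ cell marker, had 0.54 ± 0.28. Of the markers of other cell types, Clu had 0.61 ± 0.23, Ctsl 0.48 ± 0.36, Star -0.15 ± 0.21, Pecam1 -0.14 ± 0.17 and Cd68 0.27 ± 0.24. Col1a1 (0.11 ± 0.24), Pdgfra (0.02 ± 0.17) and Egfl7 (0.10 ± 0.39) changed sign between alternatives.

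Because the high group held more bright cells, the cells of each EGFP quartile of each preparation were next split at their middle score, which gave 134 upper and 134 lower cells. Averaged over the quartiles, 0 of 10447 genes passed the limma test (0% of those tested). At an unadjusted p under 0.05, 527 were higher (5.04%) and 187 lower (1.79%). Upper and lower cells differ less in score than the high and low groups do: by 1.3, 1.17, 1.08 and 1.21 from Q1 to Q4, against 1.80 to 2.26 between the groups. A smaller difference inside quartiles is thus no test of how much of the first comparison goes with EGFP.

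Inside quartiles, GDNF or FGF response genes were mostly above 0, at a lower level. Their median was 0.26, with 21 of 23 above 0, against 0.05 and 58.6% over all genes. By quartile it was 0.40, 0.24, 0.20 and 0.31 from Q1 to Q4, where all genes had 0.10, 0.05, 0.03 and 0.02. By preparation it was less even. In the 20 combinations of preparation and quartile the list median lay above that of all genes in 15: in 4, 3, 5 and 3 of the 5 preparations from Q1 to Q4. Averaged over quartiles, it was -0.03, -0.04, 0.14, 0.47 and 0.64 in preparations 1 to 5. All genes had 0.03, -0.03, 0.11, 0.06 and 0.07 in the same order. The list thus lay below all genes in preparations 1 and 2 and close to them in preparation 3. Without preparation 5 the list median fell to 0.13, against 0.04 over all genes. Without preparation 4 it was 0.38, and without preparation 2 it was 0.46. Detected genes were higher in the upper cells by 333 ± 222, 145 ± 173, 68.8 ± 313 and 180 ± 295 from Q1 to Q4 (SD, n = 5), and with them as a covariate the median was 0.23, against -0.00612 over all genes.

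Gfra1 was higher in the upper cells by 1.11 ± 0.28 (limma adjusted p = 0.231), in 5 of 5 preparations. It had 1.07, 1.40, 1.26 and 0.71 from Q1 to Q4, and was above 0 in 17 of the 20 combinations. Egr1 had 1.01 ± 0.25 (limma adjusted p = 0.231), positive in 5 of 5 preparations. It had 0.94, 0.98, 0.82 and 1.3 in Q1 to Q4, and was above 0 in 14 of 20. Dusp6 had 1.05 ± 0.27 (limma adjusted p = 0.250), also in 5 of 5 preparations, and was above 0 in 16 of 20. Averaged over the quartiles, the 3 genes therefore had the same direction in each preparation, without passing the test across all genes. Single quartiles were less even. Egr1 was above 0 in 2, 4, 4 and 4 of the 5 preparations from Q1 to Q4, Gfra1 in 4, 5, 5 and 3, and Dusp6 in 3, 4, 5 and 4.

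Other GDNF targets were more mixed inside quartiles. Egr2 had 0.83 ± 0.28, Spry4 0.76 ± 0.25, Ccnd2 0.71 ± 0.28 and Bcl6b 0.49 ± 0.25, each positive in 4 of 5 preparations. Etv5 had 0.77 ± 0.30 and Ret 0.35 ± 0.24, each in 3 of 5, and Lhx1 had 0.39 ± 0.22 in 4 of 5. Mycn (-0.50 ± 0.27) was below 0 in 5 of 5 preparations. Dusp5 (-0.09 ± 0.15) was also below 0, but above it in 2 of 5 preparations. Etv4 (0.02 ± 0.20), Spred1 (0.02 ± 0.28) and Spred2 (0.07 ± 0.21) were near 0. Other immediate early genes had a median of 0.07 (25 of 37 above 0), and heat shock genes had 0.07 (13 of 17). These shares are 67.6% and 76.5%, against 58.6% of all genes, which had a median of 0.05. Of the remaining genes that rose in the high group, Ado (0.67 ± 0.14), Rasa3 (0.97 ± 0.22) and Fcer1g (1.03 ± 0.27) were positive in 5 of 5 preparations, and Uchl1 (-0.34 ± 0.10), which fell, was negative in 5 of 5. None passed the test.

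**Figure D5:**
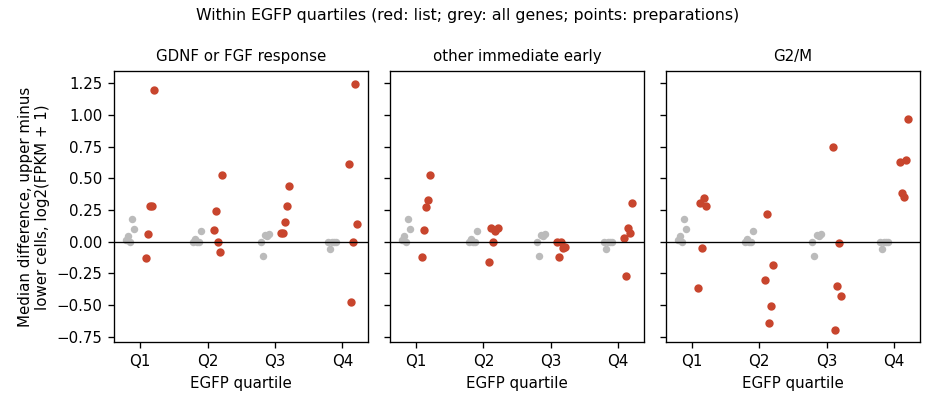
Median difference between upper and lower cells by score inside each EGFP quartile, in log2(FPKM + 1), for 3 gene lists (red) and all 10447 genes (grey), with 1 point per preparation. The GDNF or FGF response list is above 0 in 5 of 5 preparations in Q3 and spreads widely in Q4, where preparations gave 2 to 9 upper cells.

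Whether the difference between upper and lower cells depended on EGFP was tested as the difference in Q1 minus that in Q4. No gene passed the limma test (0% of those tested), and 512 of 10447 (4.90%) had an unadjusted p under 0.05. Gfra1 had 0.36 ± 0.81, Egr1 -0.36 ± 0.71, Dusp6 -1.01 ± 0.79, Egr2 0.14 ± 0.82 and Spry4 1.5 ± 0.72. With SEs from 0.71 to 0.82, these differences are measured coarsely with 5 preparations, and the lack of a call does not show that the quartiles were alike.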

How the data were processed

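Per the labels' protocols, polyA RNA of single cells was amplified with SMARTer chemistry on the C1 instrument. The authors' deposited matrix holds FPKM of 23354 genes in 278 cells; the unit was read from the values and from the submitters' processing notes, which name FastQC, TopHat, Cufflinks and Picard and the build mm10 (GRCm38), with versions not given in the sources used here. As FPKM cannot be treated as counts, means on the log scale were tested. Whether reads were counted by strand is not given in the sources used here.

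Cells were not treated as replicates. The titles' run numbers 1 to 5 were taken as preparations. Mean log2(FPKM + 1) was formed for each preparation and each of 4 groups by score (20 means) and, inside quartiles, for upper and lower cells of each preparation and quartile (40 means). The filter kept genes that reached FPKM 1 in 10% of cells or more. Means were fitted with limma 3.58.1 (R 4.3.3, trend), weighted by cells, with preparation as a block, leaving 12 and 28 residual degrees of freedom; in the first fit all 4 groups share 1 estimate of spread. P-values are two-sided and Benjamini-Hochberg adjusted over all 10447 genes; the score genes were left out. The pseudocount of 1 understates changes of low genes. Groups of a preparation come from 1 suspension: deviations of means from the same preparation correlated at a median of 0.20 (30 pairs, lowest 0.07), against -0.07 between preparations (120 pairs). With preparation as a block, the limma p-values measure how the differences between groups varied from preparation to preparation, pooled over all groups of the fit. That spread may be technical. No 2 cells were duplicates (highest correlation 0.692).

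Named genes were all tested GDNF or FGF response genes, the 8 other immediate early genes and the 2 genes of each other list with the smallest p, and up to 12 genes past the threshold in each direction with 1 sign in 5 of 5 preparations; a few of these are not reported here. Members and lists were chosen with earlier results of these data known. Depth was estimated from the smallest steps between FPKM values of 2110 single-transcript genes; 4 length offsets were tried and 200 bases kept for the clearest steps, which bears on the absolute depth. In 215 of 278 cells, estimates from 2 sets of genes lay within 1.25-fold. In total 21656 symbols matched GENCODE M21. Alternatives were other pseudocounts, filters, scalings, scores, groupings and covariates, and leaving out each preparation.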

Additional observations from a re-analysis of the deposited data

Results flagged for a closer look

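In 6 of the 80 sets of 5 preparation differences examined (those of the named genes and of the makeup of the groups), 1 preparation lay far from the others by Dixon's test at the 95% level. Chance gives about 1 in 20 such sets, so 4 would be about the number without any real difference. Etv5 was at 3.96 (high minus low group, log2(FPKM + 1)) in preparation 5, and Phlda1 at 1.05 in preparation 5. Ppp1r15a was at 2.15 in preparation 3 and Tex101 at 2.17 in preparation 3. Phgdh was at 1.27 in preparation 4, and Slc2a3 was at -0.000120 in preparation 4, below the others.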

How the results depend on the processing

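The list medians kept their direction in all alternatives run: 23 for the GDNF or FGF response list between the groups and 14 inside quartiles (0.13 to 0.46). The share of Q1 and Q4 cells and the number of detected genes did so too. The count of genes past the limma test did not. Against 15, it was 0 with no filter, 0 with detected genes as a covariate, 0 with the score adjusted for detected genes, 0 with only the high and low groups fitted, 0 with Ier2 left out of the score, and 0 without the replicate block, where 473 genes had an unadjusted p under 0.05, against 1018 with it. At an unadjusted p under 0.05 these settings had 1379, 874, 863, 990 and 907 genes in the order given. The first number is of 17101 genes tested with no filter, and the others, as the 1018, are of 10447. The count was 1 with no weights, 1 with the log of the mean FPKM, 2 with Jun left out of the score, 8 with Junb, 4 with Dusp1 and 2 with Zfp36 left out, 31 with score genes scaled to unit SD and 40 with a common 75th percentile. Leaving out 1 preparation gave from 0 to 15. Within 1.5 times the count were a pseudocount of 0.1 (20), the 25% filter (12), a linear trend (16), 33% of cells per group (18) and Fos left out of the score (16). The trend and the slope on the score are on another scale, so they gave counts only. The cause of these changes was not tested. The test of Q1 against Q4 called 1 gene (Alkbh7) with a pseudocount of 0.1 and 1 with a common 75th percentile. The log2 ratio of depth turned to 0.00429 with score genes scaled to unit SD. With detected genes as a covariate the median over all genes moved from 0.10 to -0.02.

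Single genes near 0 turned sign, none of them past the test. Between the groups, signs turned as follows. With detected genes as a covariate, the sign turned for Spred1 (-0.10), Klf10 (-0.12), Ctsl (-0.11), Pdgfra (-0.17), Egfl7 (-0.22). With the log of the mean FPKM, the sign turned for Pou3f1 (-0.000562). With no weights, the sign turned for Col1a1 (-0.013), Pdgfra (-0.0305). With a pseudocount of 0.1, the sign turned for Pdgfra (-0.0118). With the score adjusted for detected genes, the sign turned for Spred1 (-0.023), Col1a1 (-0.0105), Pdgfra (-0.0302), Egfl7 (-0.18). With score genes scaled to unit SD, the sign turned for Spred1 (-0.15), Egfl7 (-0.18). With the score without Dusp1, the sign turned for Spred1 (-0.39), Col1a1 (-0.28), Egfl7 (-0.25). With the score without Fos, the sign turned for Pdgfra (-0.0103). With the score without Ier2, the sign turned for Col1a1 (-0.33), Pdgfra (-0.0373), Egfl7 (-0.40). With the score without Jun, the sign turned for Egfl7 (-0.0807). With the score without Junb, the sign turned for Pdgfra (-0.0467), Egfl7 (-0.0478). With the score without Zfp36, the sign turned for Col1a1 (-0.0709), Egfl7 (-0.26). With 33% of cells per group, the sign turned for Col1a1 (-0.0635), Egfl7 (-0.0072). Leaving out 1 preparation at a time turned Dusp5 (-0.0575 to 0.46, turned without preparation 2), Stat3 (-0.37 to 0.92, turned without preparation 5), Col1a1 (-0.00448 to 0.18, turned without preparation 5), Pdgfra (-0.12 to 0.19, turned without preparation 4 and 5), Egfl7 (-0.43 to 0.50, turned without preparation 5), Cd68 (-0.0852 to 0.48, turned without preparation 5).

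Inside quartiles, signs turned as follows. With a common 75th percentile, the sign turned for Cdca8 (0.00706). With detected genes as a covariate, the sign turned for Spred1 (-0.0813), Spred2 (-0.0109), Ctsl (-0.0134). With no weights, the sign turned for Dusp5 (0.0278), Spred2 (-0.0256), Pecam1 (0.0167). With a pseudocount of 0.1, the sign turned for Ctsl (-0.0559). With score genes scaled to unit SD, the sign turned for Dusp5 (0.00854), Chordc1 (-0.0123). Leaving out 1 preparation at a time turned Etv4 (-0.0599 to 0.12, turned without preparation 3 and 4), Dusp5 (-0.22 to 0.11, turned without preparation 4), Spred1 (-0.12 to 0.22, turned without preparation 1 and 4), Spred2 (-0.058 to 0.13, turned without preparation 4), Cxcr4 (-0.0519 to 0.46, turned without preparation 5), Il6st (-0.0423 to 0.52, turned without preparation 5), Stat3 (-0.15 to 0.67, turned without preparation 5), Ppp1r15a (-0.0101 to 0.52, turned without preparation 3), Trib3 (-0.40 to 0.0846, turned without preparation 2), Cdca8 (-0.20 to 0.00276, turned without preparation 2), Ctsl (-0.11 to 0.13, turned without preparation 3 and 4), Col1a1 (-0.18 to 0.00127, turned without preparation 2), Pdgfra (-0.13 to 0.0126, turned without preparation 5), Pecam1 (-0.16 to 0.0899, turned without preparation 5), Egfl7 (-0.48 to 0.0125, turned without preparation 2).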

Other observations

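G2/M genes, which drive mitosis, differed in direction between EGFP quartiles when cells were split by the score. In Q4 the list median was 0.68 on the log2(FPKM + 1) scale, with 25 of 28 genes above 0, against 0.02 over all genes. It lay above the median of all genes in 5 of 5 preparations, at 0.63, 0.38, 0.35, 0.65 and 0.96, from 2, 7, 3, 7 and 9 upper cells. In Q2 and Q3 the medians were -0.30 and -0.31, with 9 and 5 of 28 above 0, and in Q1 it was 0.19. Of all genes, 51.9% were above 0 in Q4, 54.8% in Q2 and 52.9% in Q3. Top2a had 1.2 in Q4 and -0.29 in Q3. The pattern was noticed among 24 lists after the values were seen, the difference between quartiles was not tested for the list, and no single gene passed the test of Q1 against Q4.

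Retinoic acid response genes had a median of -0.80 in Q4, with 1 of 8 above 0, -0.20 in Q3, with 1 of 8, 0.07 in Q2, with 5 of 8, and 0.09 in Q1, with 5 of 8. This too was noticed after the values were seen, and the difference between quartiles was not tested for the list. Kit had -1.2 in Q4 and -1.17 in Q3. The retinoic acid list lay above the median of all genes in 2, 2, 3 and 1 of the 5 preparations from Q1 to Q4. In Q4 this was preparation 2. Of all genes, 60.5%, 54.8%, 52.9% and 51.9% were above 0 from Q1 to Q4.

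For Alkbh7 alone, Q1 and Q4 differed in 2 alternatives of the comparison inside quartiles. The difference of Q1 minus Q4 was 3.92 ± 0.76 (limma adjusted p = 0.0696), with 1.26 in Q1 and -2.66 in Q4. It passed with a pseudocount of 0.1 (limma adjusted p = 0.0496) and with cells scaled to a common 75th percentile (limma adjusted p = 0.0411), and was chosen after its values were seen.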
